A study of Rattus norvegicus with 24 samples.

Results

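Pmp22, Prx, Egr2, Sncg, Calca and Reg3b were followed as transcripts of nerve sheath and of nerve cells in the rat spinal dorsal horn. They are 6 of the 10411 genes that the arrays name with a single symbol. Every probe set carrying one of these symbols was taken, which gave 10 probe sets. Pmp22 and Egr2 had 2 each, Calca had 3, and the others had 1. The genes were picked from the values of these same arrays, for differing between arrays, between replicate numbers or with injury. Their levels and differences are therefore given as a description, without p-values.

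The arrays came from Sprague-Dawley rats, adults of 8 to 12 weeks and neonates of postnatal day 10, which may be the day of surgery or of tissue collection, as neither is stated. In spared nerve injury (SNI), a model of neuropathic pain, 2 of the 3 branches of the sciatic nerve (tibial and common peroneal) are tied and cut while the sural branch is kept whole. Sham animals had the nerve exposed only, and the dorsal horn on the operated side was taken, from SNI animals 7 days after the injury. Surgery was under isoflurane in all groups, and pups stayed with their mothers. Sham and SNI at both ages made 4 groups with 6 arrays each, described in the labels as biologically independent. Each array also carries a replicate number from 1 to 6, whose meaning is not given. Sex is not stated.

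In peripheral nerve, Schwann cells wrap axons in myelin. Pmp22 encodes a protein of compact peripheral myelin, also made in other tissues, Prx encodes periaxin, a scaffold protein of myelinating Schwann cells, and Egr2 encodes the transcription factor that switches on myelin genes in these cells. Central myelin is made instead by oligodendrocytes, so Schwann cell transcripts in spinal tissue can come from attached nerve root. Calca encodes the peptide CGRP and Sncg encodes gamma-synuclein. Both are made in sensory neurons of the dorsal root ganglion, whose axons end in the dorsal horn, and also in spinal motor neurons. Reg3b encodes a secreted lectin-like protein that axotomised sensory and motor neurons are known to make.

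The values are log2 expression levels after GCRMA, in which a probe set with no signal sits at a floor near 2.09. A level of 3.84, the 40th percentile of all values, is called the detection level here. It is a filter and no measured limit. Array medians lay between 5.57 and 5.67, and any 2 arrays correlated at 0.984 or more over all probe sets. Of the 10 member probe sets, 7 lay above the detection level on at least 6 arrays and were tested with 9638 probe sets in all. Those for Egr2 (1398266_a_at) and Calca (1369117_at) never rose above it, and the Calca probe set 1369116_a_at did so on 4 arrays. 1 array stood apart in the sheath genes. The third neonate sham array (neonate sham 3) was the lowest of its group for Pmp22, Prx and Egr2 and the highest of its group for Chat, so the members' differences that use it are given with and without it, and group comparisons of listed genes whose call changes without it are named.

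The label of sensory afferents was set against markers. Scn10a, Scn11a, Trpv1, P2rx3 and Avil, genes that define sensory ganglion neurons, were measured on all 24 arrays, and all 5 were never above the detection level. The highest value was 3.69, for P2rx3. Their summed level, on the log2 scale, ran from 4.42 to 4.91 in adult sham, from 4.42 to 4.52 in adult SNI, from 4.42 to 4.47 in neonate sham and from 4.42 to 4.49 in neonate SNI. Of 5 measured genes of cholinergic and motor neurons, Slc5a7 (choline transporter) and Prph (peripherin) were above the detection level on all 24 arrays, Chat (acetylcholine synthesis) on 10 and Slc18a3 (vesicular acetylcholine transporter) on 7. Isl1 never was. Prph is also made by sensory neurons. The summed level of these 5 genes ranged from 8.06 to 12.04 in adult sham, 9.14 to 11.92 in adult SNI, 8.00 to 10.95 in neonate sham and 7.89 to 11.46 in neonate SNI. On adult sham 4, with the highest sum, Prph alone was at 11.63. A broader primary afferent list had 17 measured genes, of which 10 were never above the detection level. On all 24 arrays 5 were above it (Prph, Nefh, Ret, Tac1 and Gfra2). The cell source of the Sncg and Calca RNA was not tested, so they are called by their gene names. Dorsal horn neurons were represented, with 6 of 9 of their markers above the detection level on every array.

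**Figure D1:**
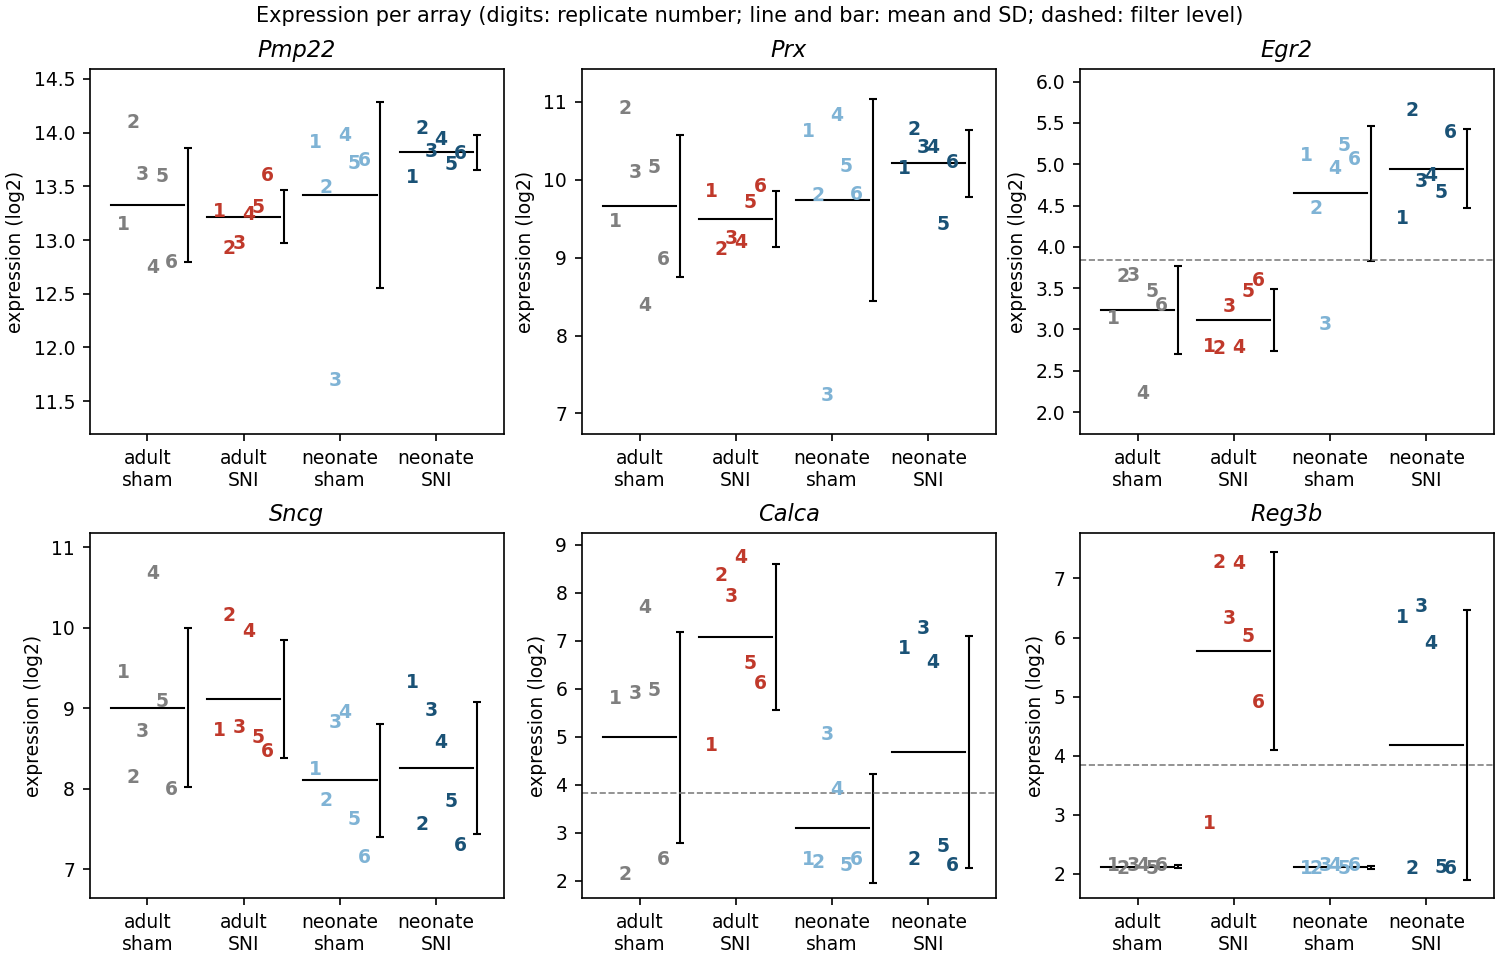
Level of each member (log2, GCRMA) on every array, by group, shown as its replicate number, with the group mean and SD (n = 6 arrays) and the detection level dashed. Reg3b leaves the floor in the SNI groups only, Egr2 is above that level in neonates only, and neonate sham 3 is the low point of its group for Pmp22, Prx and Egr2.

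The sheath genes showed little difference with injury beside a wide spread between arrays. Prx reached 8.38 at the lowest, 9.78 at the median and 10.92 at the highest in adult sham, and 9.11, 9.47 and 9.91 in adult SNI. In neonate sham these values were 7.23, 9.99 and 10.83, and in neonate SNI 9.42, 10.32 and 10.65. The groups overlapped throughout, and the low end of neonate sham was the third array. The group means were 9.67 ± 0.91 (SD, n = 6) in adult sham, 9.50 ± 0.36 in adult SNI, 9.74 ± 1.30 in neonate sham and 10.21 ± 0.43 in neonate SNI. SNI minus sham was -0.17 (SE 0.45) in adults and 0.47 (SE 0.45) in neonates. Without neonate sham 3 the neonatal difference was -0.04. Adult minus neonate sham was -0.08 (SE 0.45), or -0.58 without that array.

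Pmp22 followed the same course at both of its probe sets. At 1370247_a_at the lowest, median and highest levels were 12.74, 13.36 and 14.09 in adult sham and 12.92, 13.26 and 13.60 in adult SNI. In neonate sham they were 11.69, 13.73 and 13.97, and in neonate SNI 13.58, 13.82 and 14.04. The adult groups overlapped, and among neonates the third sham array again lay far below the rest. SNI minus sham was -0.11 (SE 0.28) in adults and 0.40 (SE 0.28) in neonates, and the neonatal value was 0.05 without neonate sham 3. At 1370504_a_at the neonatal difference went from 0.50 to -0.01 without that array. Leaving out this 1 library thus turned the sign for Prx and for 1 probe set of Pmp22, and also for Egr2, described next.

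Egr2, the regulator of Schwann cell myelin genes, was at a low level that differed by age. At 1387306_a_at it was above the detection level on 0 of 6 adult sham and 0 of 6 adult SNI arrays, against 5 of 6 neonate sham and 6 of 6 neonate SNI arrays. Its lowest, median and highest levels were 2.23, 3.38 and 3.65 in adult sham, 2.77, 3.03 and 3.59 in adult SNI, 3.06, 5.00 and 5.23 in neonate sham, and 4.34, 4.83 and 5.65 in neonate SNI. The only neonatal array inside the adult range was neonate sham 3. Adult minus neonate sham was -1.41 (SE 0.31), or -1.73 without that array. Against the detection level the neonate sham mean was at least 1.76-fold higher than adult sham. With injury Egr2 differed by -0.12 (SE 0.31) in adults and 0.30 (SE 0.31) in neonates, the latter -0.02 without neonate sham 3. Egr2 is also an early response gene of neurons, and which cells held it was not tested.

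The promoters of Pmp22 and Prx are shown because these genes moved together from array to array. The 250 bases before the start of each gene were read from RefSeq on the GRCr8 build, where all 6 genes had an entry. Pmp22 is on chr10:48294682-48294931 and Prx on chr1:91914171-91914420, both on the plus strand.
Pmp22: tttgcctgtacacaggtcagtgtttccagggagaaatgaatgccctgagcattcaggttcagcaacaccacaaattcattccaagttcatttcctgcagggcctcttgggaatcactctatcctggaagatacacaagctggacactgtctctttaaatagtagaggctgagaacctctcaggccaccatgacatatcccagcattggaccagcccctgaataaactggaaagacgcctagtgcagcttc
Prx: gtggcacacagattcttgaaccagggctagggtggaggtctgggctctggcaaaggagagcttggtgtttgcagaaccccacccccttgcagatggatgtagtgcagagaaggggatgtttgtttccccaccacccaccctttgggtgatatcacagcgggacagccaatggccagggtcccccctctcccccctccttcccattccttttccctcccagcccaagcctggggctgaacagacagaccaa
Neither window held GCGNGGGCG (the EGR motif, searched on both strands), TGANTCA (AP-1), TTCNNNGAA (STAT) or TATAAA. Among 33469 windows of the same length, 4.29%, 6.34%, 7.67% and 12.9% held them, so most windows lack each motif.

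Within groups the sheath genes moved together from array to array. Each array's deviation from its group mean was compared over the 24 arrays, as a description without p-values, since the genes were picked on these arrays. Pmp22 and Prx correlated at r = 0.956 (Spearman's rho 0.908), and at 0.899 without the 2 farthest arrays (adult sham 2 and neonate sham 3). Prx and Egr2 correlated at r = 0.818 (rho 0.714), falling to 0.561 without adult sham 4 and neonate sham 3. No adult array had Egr2 above the detection level, so its adult deviations are among dim values. Prx and Cldn19, a tight junction protein of Schwann cells that was not used in the choice, correlated at r = 0.942 (rho 0.942), and at 0.899 without the same 2 arrays. With Dcn, a fibroblast proteoglycan of meninges and nerve sheath, the values were r = 0.811 and rho 0.648, and 0.524 without those arrays. With Mbp, shared by central and peripheral myelin, r was -0.26. The genes closest to the mean of Pmp22, Prx and Egr2 among 7000 were Mlip (r = 0.959), Sema3b (0.944), Cldn19 (0.937), Cnmd (0.932), Myoc (0.910), Ctnnal1 (0.906), Vim (0.899) and S100a6 (0.896), against a median r of 0.02 over all genes. Of these 8, 4 were also among the closest 8 by rank correlation and 4 without the 2 farthest arrays. The summed level of 7 meningeal and fibroblast markers was also lowest in neonate sham 3, at 9.89 against a group median of 11.63. The part of meninges and roots in these values was not tested. In bulk tissue, fewer cells of a type and less RNA per cell cannot be told apart.

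**Figure D2:**
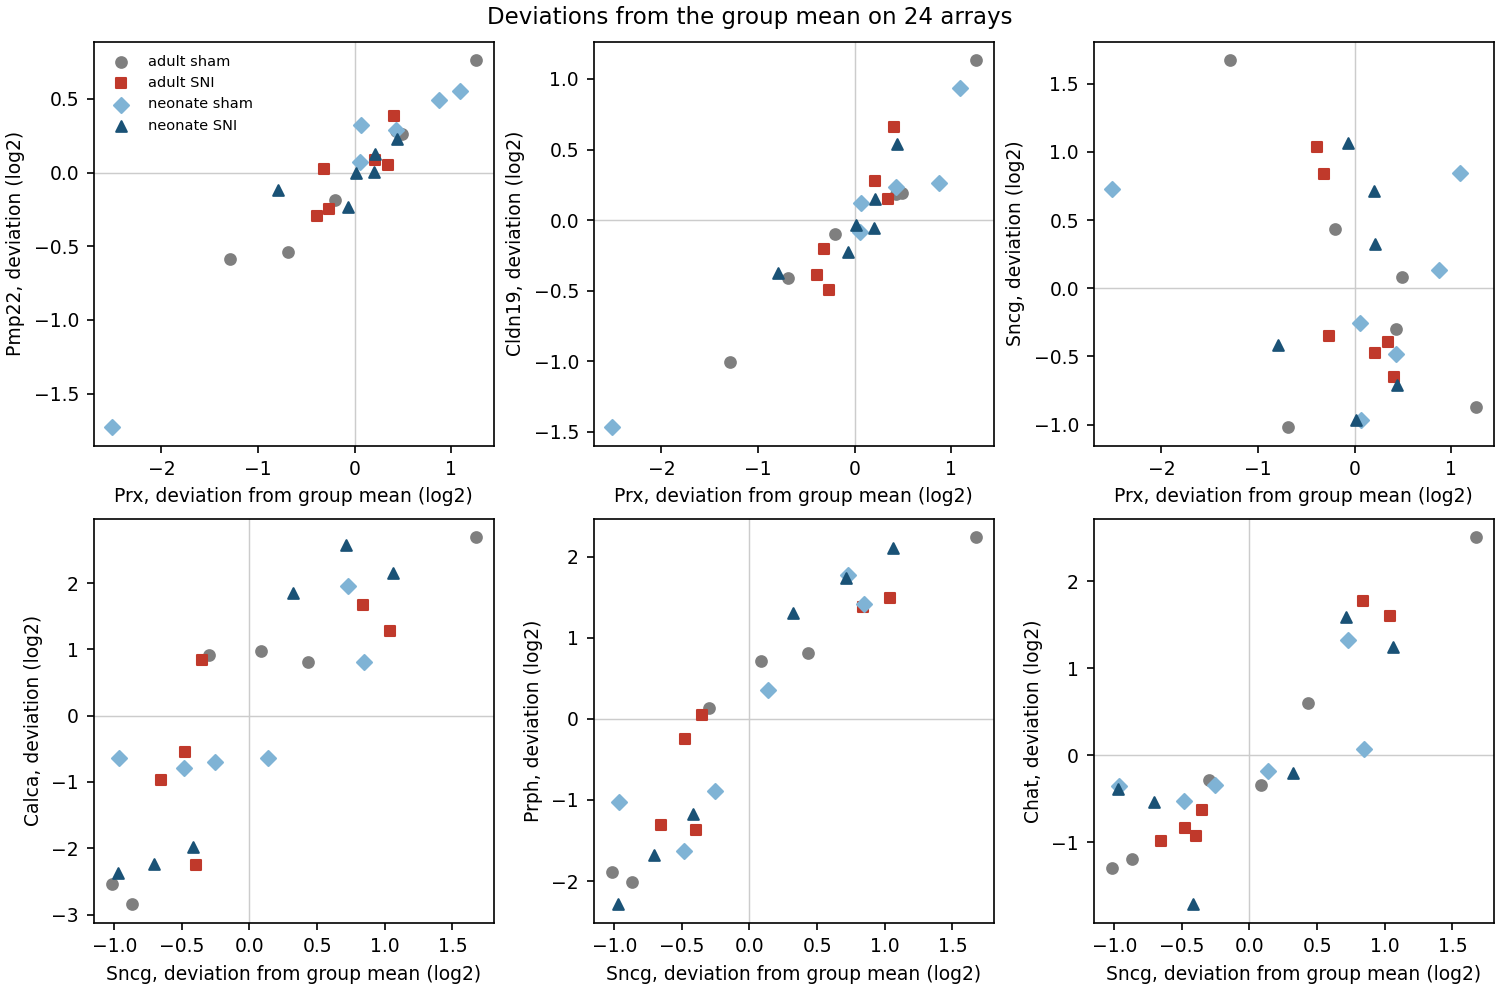
Deviation of single arrays from their group mean (log2), with 24 arrays in 4 groups marked by colour and shape. Prx is on the horizontal axis of the upper panels (against Pmp22, Cldn19 and Sncg) and Sncg on that of the lower panels (against Calca, Prph and Chat). Points rise together in every panel except that of Prx and Sncg (r = -0.340), and neonate sham 3 is the leftmost point of the Prx panels.

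Sncg was higher on average in adults but overlapped between ages. Its lowest, median and highest levels were 7.99, 8.90 and 10.68 in adult sham, 8.46, 8.74 and 10.15 in adult SNI, 7.14, 8.05 and 8.95 in neonate sham, and 7.29, 8.21 and 9.32 in neonate SNI. Adult sham 4 was the highest of all. Sham and SNI covered nearly the same range at each age. SNI minus sham was 0.10 (SE 0.44) in adults and 0.15 (SE 0.44) in neonates, and adult minus neonate sham was 0.90 (SE 0.44). Without neonate sham 3 these last values were 0.30 and 1.05. Of the cholinergic and motor neuron genes, 0 of 4 tested were called between the sham groups, also at an unadjusted p under 0.05, and their median difference was 0.75 against -0.03 over all genes. Their part in the Sncg difference was not tested.

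Calca spanned the range from the floor to clearly detected levels in 3 of the 4 groups. At 1370775_a_at the adult sham arrays read, from number 1 to 6, 5.80, 2.14, 5.90, 7.68, 5.96 and 2.45, and the adult SNI arrays 4.82, 8.35, 7.91, 8.74, 6.52 and 6.10. The neonate sham arrays read 2.45, 2.39, 5.05, 3.91, 2.31 and 2.45, and the neonate SNI arrays 6.84, 2.45, 7.26, 6.54, 2.71 and 2.31. Adult sham arrays reached from the floor to 7.68, and 3 of 6 adult SNI arrays were above every adult sham array. Calca was above the detection level on 4 of 6 adult sham, 6 of 6 adult SNI, 2 of 6 neonate sham and 3 of 6 neonate SNI arrays. SNI minus sham was 2.09 (SE 1.00) in adults and 1.59 (SE 1.00) in neonates, the latter 1.98 without neonate sham 3. Adult minus neonate sham was 1.90 (SE 1.00), or 2.29 without that array. The probe set 1369116_a_at was above the detection level on 1 adult sham and 3 adult SNI arrays and on no neonatal array.

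Sncg and Calca rose and fell together within groups, and with the cholinergic genes. The deviations of Sncg and Calca correlated at r = 0.859 (rho 0.854, n = 24), and at 0.829 without adult sham 4 and neonate SNI 1. Sncg correlated with Prph at r = 0.939 (rho 0.947), and with Prph within the 4 groups of 6 arrays at 0.950, 0.915, 0.919 and 0.987. With Chat the pooled value was 0.880 (rho 0.862), and with Slc18a3 it was 0.912 (rho 0.901). Calca correlated with Slc5a7 at r = 0.899 (rho 0.926), and with Calcb, which encodes the second CGRP peptide, at 0.874 (rho 0.920). Calcb was above the detection level on 7 of the 24 arrays. Drgx, a transcription factor of dorsal horn and sensory neurons, ran the other way against Sncg, at r = -0.888 (rho -0.876). The genes closest to the mean of Sncg and Calca were Prph (0.976), the adhesion protein gene Tns1 (0.919), the small heat shock protein Hspb1 (0.918), Slc5a7 (0.915), Hspb8 (0.913), Calcb (0.913), the heavy neurofilament Nefh (0.903) and Slc18a3 (0.876), against a median r of 0.02 over all genes. Of these 8, 8 were among the closest 8 by rank correlation and 7 without adult sham 2 and adult sham 4. The lowest were Opcml (-0.874), Celf5 (-0.851) and Calb1 (-0.844). The sheath genes ran against Sncg to different degrees. Egr2 and Sncg correlated at r = -0.668 (rho -0.677), at -0.608 without adult sham 4 and neonate sham 3 and at -0.725 without neonate sham 3 alone. Egr2 and Calca correlated at r = -0.547 (rho -0.561), and at -0.430 without adult sham 4 and neonate sham 3. Both Egr2 values include adult arrays, on all of which Egr2 was below the detection level. Prx and Sncg correlated at r = -0.340 (rho -0.266), and at -0.04 without the same 2 arrays. Within groups of 6 arrays the r of Prx and Sncg was -0.601 in adult sham, -0.809 in adult SNI, -0.231 in neonate sham and 0.084 in neonate SNI. The part of cholinergic or motor neuron tissue in the Sncg and Calca levels was not tested.

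Reg3b left the floor in SNI arrays only. All 12 sham arrays lay between 2.09 and 2.14. The adult SNI arrays read, from number 1 to 6, 2.85, 7.27, 6.33, 7.25, 6.01 and 4.90, and the neonate SNI arrays 6.34, 2.09, 6.52, 5.90, 2.11 and 2.09. All 6 adult SNI arrays were above all adult sham arrays, 5 of them above the detection level. Among neonates 3 of 6 were clearly above it, while 3 stayed at the floor. SNI minus sham was 3.64 (SE 0.75) in adults and 2.06 (SE 0.75) in neonates, also 2.06 without neonate sham 3. As sham was below the detection level, the adult SNI mean was at least 3.81-fold higher and the neonate SNI mean at least 1.26-fold higher than that level. The difference of the injury effects, adult minus neonate, was 1.58 (SE 1.06), also 1.58 without that array. These SEs of Reg3b pool sham arrays at the floor with widely spread SNI arrays, so no conclusion on an age difference is drawn from them. Of its relatives on the arrays, Reg3a and Reg3g were never above the detection level.

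In the SNI arrays Reg3b went with Calca and Prph. Among the 6 adult SNI arrays it correlated with Calca at r = 0.957 (rho 0.943) and with Prph at r = 0.897 (rho 1). The neonate SNI arrays fell into separate clusters, so no coefficient is given. Numbers 1, 3 and 4 had Calca and Reg3b both above the detection level, with Prph at 11.29, 10.92 and 10.50. Numbers 2, 5 and 6 had neither, with Prph at 7.51, 8.01 and 6.90. Sham arrays with as much Prph, such as adult sham 4 at 11.63 and neonate sham 3 at 10.54, both had Reg3b at 2.14. High Prph was thus accompanied by Reg3b in injured animals and not in sham animals. The cell source of the Reg3b RNA, and why it went with Prph in SNI arrays, were not tested. The genes closest to Reg3b were Dock5 (0.774), C2cd2 (0.753), Trim36 (0.738), Timp1 (0.733) and Prph (0.694), and only 2 of its closest 8 recurred by rank correlation.

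**Figure D3:**
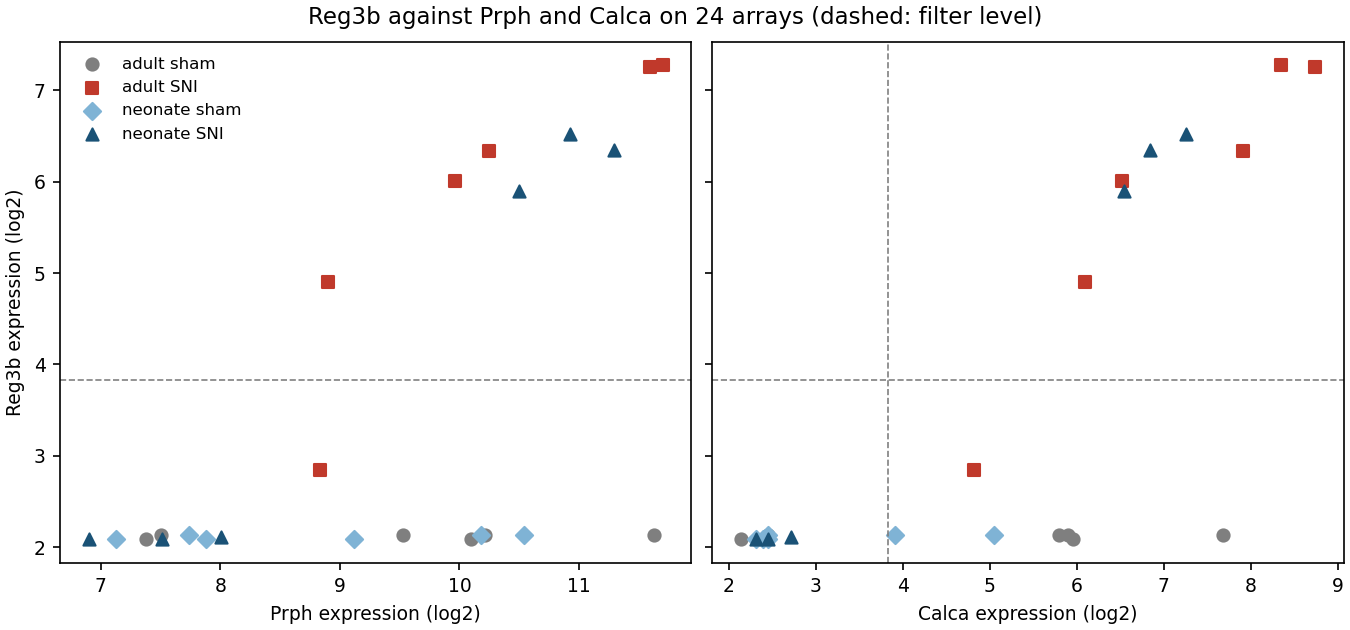
Reg3b level against Prph level and against Calca level (all log2) on each of the 24 arrays, by group, with the detection level dashed. Sham arrays stay at 2.09 to 2.14 up to a Prph level of 11.63 and a Calca level of 7.68, and the 3 neonate SNI arrays at the floor are those with the lowest Prph and Calca of their group.

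The Reg3b promoter is shown because its gene carried the injury difference. It lies on chr4:112419526-112419775, plus strand, of GRCr8 (RefSeq), with capitals marking a STAT motif TTCNNNGAA, written TTCTTGGAA, that begins 129 bases before the start, and TATAAA, 29 bases before it.
Reg3b: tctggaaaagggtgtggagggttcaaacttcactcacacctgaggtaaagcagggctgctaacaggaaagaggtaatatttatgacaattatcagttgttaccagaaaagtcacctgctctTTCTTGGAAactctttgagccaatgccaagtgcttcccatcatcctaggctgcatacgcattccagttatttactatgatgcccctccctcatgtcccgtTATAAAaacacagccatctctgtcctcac
A STAT motif was present in 7.67% of 33469 windows and TATAAA in 12.9%. These are matches of letters only.

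Beside the counts over all genes, the members gave the following. In adults 1 of 6 members (Reg3b) was called different between SNI and sham by limma after Benjamini-Hochberg adjustment, where 2.01% of 7006 genes were called (1.98% higher and 0.0285% lower). Reg3b also lay above sham on every array, as 1.8% of genes did. The median difference over the 6 members was -0.0033, against -0.03 over all genes. In neonates 0 of 6 were called (1 at an unadjusted p under 0.05), where 0.357% of genes were, and 0.485% lay above sham on every array. The median was 0.43 against -0.0087 over all genes. For the difference of the injury effects 0 of 6 were called, also at an unadjusted p under 0.05, where 0.257% of genes were. Between adult and neonate sham 1 of 6 (Egr2, lower in adults) was called, where 16.5% of genes were (7.86% higher and 8.59% lower). The sham groups of the 2 ages did not separate on every array for any of the 6 members, as they did for 8.65% of genes (4.54% above and 4.11% below in adults). Nothing is read from these counts, since the choice of the members used the same contrasts.

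The genes around the members were taken from lists of nerve sheath, afferent, injury and early-response genes, read with the earlier results known. In adults none of their tested genes passed the threshold between SNI and sham. Of the 3 tested genes listed under peripheral myelin and Schwann cells (Cldn19, Mal2 and Scn7a), 0 were called, also at an unadjusted p under 0.05. The same held for 8 shared myelin genes, 7 oligodendrocyte genes, 10 meningeal and fibroblast genes and 4 Egr and immediate-early genes. Of 6 primary afferent genes 0 were called (1 at an unadjusted p under 0.05), of 5 relatives of CGRP and the synucleins 0 (1), and of 8 genes of injured afferents 0 (4), with a median of 0.23 against -0.03 over all genes. In neonates 0 of each list were called, with 2 of the 8 injury genes and 1 of the 10 meningeal genes at an unadjusted p under 0.05.

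The adult calls of 3 listed genes depended on the setting. Ret, of the primary afferent list, a receptor of glial-derived neurotrophic factors, differed by 0.61 (SE 0.21) between SNI and sham, with a limma adjusted p of 0.228. With the replicate number as a block its limma adjusted p was 0.0144. Its other probe sets differed by 0.18 (limma adjusted p 0.969) and 0.55 (0.612). Gadd45a, of the injured afferent list, a stress response gene, differed by 0.49 (SE 0.16, adjusted p 0.193), and by 0.62 without adult SNI 1 (adjusted p 0.0217). Atf3, of the same list, the transcription factor that marks axotomised neurons, failed the filter on dim probe sets. Its 6 adult SNI arrays read 2.12, 6.77, 4.94, 4.71, 3.92 and 3.54, and all 6 adult sham arrays 2.09. In neonates only SNI array 3 left the floor, at 3.77. Tested with no filter, Atf3 differed by 2.24 (SE 0.49) in adults, with a limma adjusted p of 0.0140. The SD was 0 in both sham groups, at the floor, and 1.56 in adult SNI. This SE pools those groups, so the p does not measure the spread of the adult SNI arrays and no call is read from it. Like Reg3b, Atf3 was lowest on adult SNI array 1 and highest on array 2. As a further fact of these arrays, Tnnc2, a skeletal muscle troponin and the only tested muscle marker, was lower in adult SNI (difference -1.40, SE 0.31, limma adjusted p 0.00874). In neonates Tnnc2 differed by -0.95 between SNI and sham (SE 0.31, limma adjusted p 0.634). It was higher in adult than in neonate sham by 2.82 (limma adjusted p 5.78e-07). Of the 4 measured muscle markers, 3 were never above the detection level.

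Between adult and neonate sham the lists held calls in either direction, to be read beside 7.86% of all genes called higher in adults and 8.59% lower. Among shared myelin genes 1 of 8 was higher in adults (S100b, by 0.85, limma adjusted p 3.35e-05) and 2 were lower (Cnp by -0.43 and Mag by -0.51). Among oligodendrocyte genes Gpr37 was higher (0.33) and Tspan2 lower (-0.65). The probe sets that stood for Mobp (0.17, limma adjusted p 0.320) and Cldn11 (-0.19, limma adjusted p 0.326) were not called, while other probe sets of these genes were. For Mobp they disagreed, with a difference of -0.82 (limma adjusted p 2.33e-06) at one and 0.35 (limma adjusted p 0.0409) at another. For Cldn11 the other probe set was lower by -0.50 (limma adjusted p 0.00766). Among primary afferent genes 1 of 6 was lower (Tac1, substance P, -0.56, limma adjusted p 0.0367). Tac1 is also on the list of dorsal horn neuron markers, and which cells held it was not tested. Of 7 tested markers on that list 2 were lower, Tac1 and Slc17a6 (-0.27, limma adjusted p 0.0221). Slc17a6 lost its call without any 1 of 3 arrays and with quantile normalization. Among the injury genes 1 of 8 was lower (Gadd45a, -0.56). Among CGRP and synuclein relatives 2 of 5 were lower, the receptor partner Ramp1 by -0.96 (limma adjusted p 0.000113) and Sncb by -0.30. Of 4 Egr and early-response genes, 1 (Egr1, -0.72) was lower. Of 10 meningeal genes, Ogn was higher (1.02), and the collagens Col1a1 (-0.80) and Col3a1 (-1.03) were lower. None of the 3 tested genes listed under peripheral myelin and Schwann cells (Cldn19, Mal2 and Scn7a) passed, with 0 at an unadjusted p under 0.05. Of 6 listed Schwann cell markers 1 was tested, Cldn19. Many of these calls changed with the arrays used. The brighter Col1a1 probe set lost its call without any 1 of 18 arrays, and with quantile normalization, with arrays centred on their medians and with no filter. A second Col1a1 probe set was lower by -0.97 (SE 0.24, limma adjusted p 0.00556). Col1a2 differed by -0.63 (limma adjusted p 0.276), and by -0.99 without neonate sham 3 (0.0295), while its second probe set was lower by -1.07 (0.0228). Col3a1 lost its call without any 1 of 5 arrays and with no filter. Tac1 lost its call without any 1 of 6 arrays and under the same 3 settings as Col1a1. Gpr37 lost its call without neonate sham 6, Egr1 without adult sham 4 and Gadd45a without adult sham 1. Other genes gained a call. Nefh, of the primary afferent list, was higher in adults by 0.36 (limma adjusted p 0.110), and by 0.45 without neonate sham 3 (0.0427). Gjb1, a gap junction gene of the shared myelin list, was higher by 0.57 (limma adjusted p 0.0501) and was called without any 1 of 8 arrays and under 4 other settings. Fos and Gal were called without neonate sham 4, Gfra2 without adult SNI 4, and Gal, Gfra2 and Npy with array weights. Fxyd3, of the peripheral myelin and Schwann cell list, failed the filter, being above the detection level on 2 arrays. With no filter it was higher in adult sham by 0.95 (SE 0.25, limma adjusted p 0.0188).

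Sncg and Calca also differed by replicate number, which was among the reasons they were chosen, so this is a description. Among arrays of the same group it accounted for 57.7% of the variance of Sncg and 55.1% of that of Calca, against 22.2% for Egr2, 20.1% for Reg3b, 16.8% for Pmp22 and 13.4% for Prx. A number with no effect would take 25% on average. Number 4 was above its group mean in 4 of 4 groups for Sncg (by 0.92 on average) and for Calca (by 1.76), and number 3 in 4 of 4 for Calca (by 1.57). Number 6 was below it in 4 of 4 groups for both, by 0.90 for Sncg and 1.63 for Calca, while Egr2 was above it by 0.34. In a limma test of the number with group as a term, 37.5% of all genes passed. Sncg and Calca were the 2 of 6 members that did, and nothing is read from this. Of the lists, 6 of 8 shared myelin, 5 of 7 oligodendrocyte, 4 of 6 primary afferent and 5 of 10 meningeal and fibroblast genes passed. So did 2 of 5 CGRP and synuclein relatives, 2 of 4 early-response genes and 2 of 8 injury genes. Of the genes listed under peripheral myelin and Schwann cells, 1 of 3 passed. Of 4 motor neuron genes 1 passed, Prph (adjusted p 0.0157), while Slc5a7 (0.113), Slc18a3 (0.114) and Chat (0.137) did not. The labels do not say what the number marks, and its cause was not tested.

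**Figure D4:**
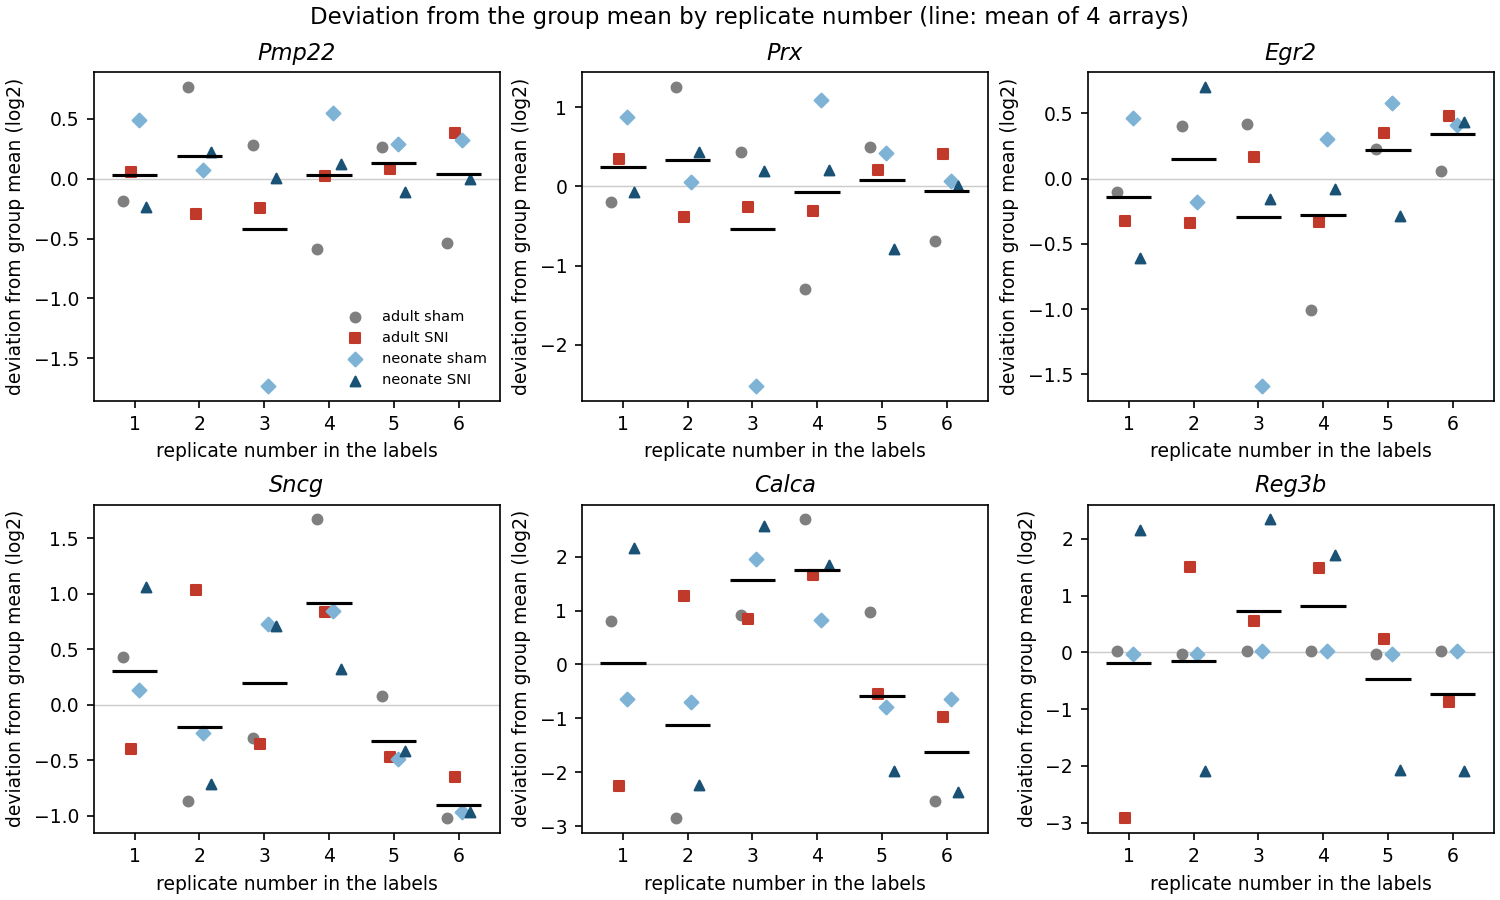
Deviation from the group mean (log2) against replicate number for the members, 4 arrays at each number. The Sncg and Calca points are above 0 at number 4 and below 0 at number 6 in all groups, and the Prx points lie on both sides of 0 at these numbers.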

How the data were processed

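The deposited log2 values, 1 for each probe set of Affymetrix Rat Expression 230A arrays, were made with GCRMA per the submitters' processing notes, its version not given in the sources used here. They were used unchanged. After removal of 57 control probe sets, 12783 of 15866 carried 1 symbol. limma 3.58.1 (R 4.3.3) fitted 4 group means over 24 arrays (20 residual degrees of freedom) to the 9638 probe sets above 3.84 log2 on at least 6 arrays. P-values were two-sided with Benjamini-Hochberg adjustment at 0.05. The probe set with the highest mean stood for its gene in counts of 7006 genes. Same-number arrays deviated together within an age (r from 0.10 to 0.56 in adults, 0.24 to 0.61 in neonates). The main fit, which gave the differences, SEs and calls, did not use the number. A second fit added the number as a block, with effects shared by all 4 groups. The members and lists were chosen with earlier results of these data known. The closest genes were the 8 with the highest correlation of deviations from group means. The fits were tested on simulated data. Figures used matplotlib 3.10.9 (Python 3.11.15).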

Additional observations from a re-analysis of the deposited data

Results flagged for a closer look

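A sample stood far from the others of its group in 10 of 71 groups checked by Dixon's test. Chance gives about 5% in genes not picked on the same arrays. Of these, 7 were on neonate sham 3. It was the lowest of its group for Pmp22, at 11.69 (nearest array 13.49) and 10.36 (12.91) at the 2 probe sets, for Prx at 7.23 (9.80), for Egr2 at 3.06 (4.47), for Mlip at 5.00 (8.36) and for Dcn at 7.24 (9.01). It was the highest for Chat, at 5.27 (4.02). Dcn was highest on neonate SNI 2 at 9.68 (9.23), Ret on neonate SNI 3 at 8.25 (7.41), and Calca at 1369116_a_at on adult sham 4 at 4.43 (2.48). These genes share arrays and are not independent. The members and their closest genes were also picked from these arrays, so nothing is read from the share beside 5%.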

How the results depend on the processing

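The adult count of probe sets past the threshold was 193, and it was 106 with the filter at the 60th percentile, 223 with no filter and 297 with the replicate block, while leaving out single arrays gave 169 to 200. With the same block the neonatal count was 35 (30 without the block). The count for the difference of injury effects was 31 (22 without the block), and 6 with the stricter filter. In the comparisons that involve injury, the block also called Ret and changed no other call among the members and listed genes. Calls between the sham groups were not compared with the block. Leaving out single arrays gave 23 to 31 in neonates, 19 to 29 for the difference of injury effects, and 1248 to 1658 for age in sham. With values raised to the detection level, the adult Reg3b difference was 2.10 (3.64 as deposited) and the neonatal difference of Calca at 1369116_a_at was 0 (0.43), since dim values were set equal. Leaving out single arrays moved Reg3b between 3.34 and 4.23 in adults and between 1.59 and 2.48 in neonates, and adult Calca between 1.52 and 2.63. Values near the floor limit Egr2, Calca and Reg3b most. Correlations without neonate sham 3 alone were chosen after seeing the data and gave 0.907 for Pmp22 with Prx and 0.646 for Prx with Egr2.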
